A study of Homo sapiens with 27 samples.

Results

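RBM15 and the other core genes of the m6A writer complex were followed in RNA Frac-Seq libraries of U2OS cells depleted of TPR. The set was RBM15, RBM15B, METTL3, METTL14, WTAP, VIRMA, ZC3H13 and CBLL1, that is 8 genes of the 34464 in the expression table. Members were the rows whose Ensembl gene ID carries 1 of these symbols in GENCODE release 44. Of the 8 genes, 7 were found, and all 7 passed the minimum used for testing (a mean above 1 FPKM over the libraries, which left 14611 genes). The ID that the annotation gives for RBM15B matched no row. The authors used an earlier annotation, in which the gene may have another ID, so RBM15B was not analysed here. RBM15 was chosen by its difference between TPR A and control in the total libraries, seen in earlier results of these data, so that difference is given below as a description with no test.

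U2OS is a human osteosarcoma line. All cultures were infected with lentivirus and carried, over 5 days, a control shRNA (Control) or 1 of 2 different shRNAs against TPR, named TPR A and TPR D. TPR is a long coiled-coil protein of the nuclear pore basket, and TPR was the gene that the study depleted. Each culture was divided with detergent into a nuclear and a cytoplasmic/ER fraction beside a reserved total sample, and poly(A)+ RNA of each was sequenced. With 3 replicates of each shRNA, this gave 27 libraries, 3 in each of 9 groups. The study's methods call the replicates biological, but neither they nor the labels say whether each was a separate infection, so the p-values measure the spread between these samples.

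The writer complex places a methyl group on the N6 position of adenosines in nascent mRNA, mostly near stop codons and in long exons. METTL3 is the catalytic subunit and METTL14 its RNA-binding partner. WTAP holds them in nuclear speckles together with VIRMA, ZC3H13 and CBLL1. RBM15 and its paralog RBM15B are SPEN-family proteins with RNA recognition motifs and a SPOC domain, which bring the complex to particular RNAs. RBM15 also binds the mRNA export receptor NXF1, and its gene is fused to MRTFA in infant megakaryoblastic leukaemia.

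RBM15 (ENSG00000162775) lies at chr1:110881128-110889303 on the plus strand of GRCh37. Its canonical transcript has 3 exons and 3373 nt. Exon 1 alone is 2892 nt long and holds 2863 of the 2931 coding bases, or 97.7%, so that the gene is close to intronless in its coding part. The introns are 3270 and 658 nt long. The study sorted TPR-dependent mRNAs by pre-mRNA length, for which it proposed a major role, and by number of introns. The RBM15 locus spans 8176 bases. The splice sites of RBM15 are shown because intron number was among these properties. They are read from GRCh37 on the plus strand, with exonic bases in capitals.

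RBM15 intron 1 donor, chr1:110884879-110884908: TCATTGTCCGTGgtgcgtcctaaagtccat
RBM15 intron 1 acceptor, chr1:110888143-110888172: tttctgtctctctcacagGGTTTGGTTTTC
RBM15 intron 2 donor, chr1:110888260-110888289: AAATGATTTCAGgtaaccacagtgaaatgt
RBM15 intron 2 acceptor, chr1:110888912-110888941: tttccccccctccgcaagCAAAACTGGTTG

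Both donors begin with GT and both acceptors end with AG. The other members are split into more exons. In the canonical transcripts CBLL1 (chr7:107383518-107402112, plus strand) has 6, WTAP (chr6:160146617-160177351, plus) has 8, METTL3 (chr14:21966277-21979484, minus) and METTL14 (chr4:119606547-119636588, plus) have 11 each, ZC3H13 (chr13:46528600-46626894, minus) has 19 and VIRMA (chr8:95499917-95565757, minus) has 24. Antisense genes are annotated across part of RBM15 (RBM15-AS1), METTL3 (TOX4), ZC3H13 (CPB2-AS1), CBLL1 (CBLL1-AS1), WTAP (SOD2) and VIRMA (ENSG00000254315, unnamed). The library kit keeps strand, but whether the authors' counting used it is not given in the sources used here. RBM15-AS1 lay between 0.0688 and 0.333 FPKM in every library, well under RBM15. The gene across VIRMA, ENSG00000254315, had group means of at most 0.0460 FPKM. Group means were 0.312 to 0.494 FPKM for CPB2-AS1, 1.78 to 3.41 for CBLL1-AS1 and 19.8 to 43.4 for TOX4. TOX4 thus lay above METTL3, whose group means were 7.15 to 17.6 FPKM. No row matched SOD2, across WTAP, so its level was not examined.

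The 250 bases before the RefSeq start of RBM15 are shown because its mRNA moved in every fraction (below). They are from RefSeq on GRCh38.p14, chr1:110339127-110339376, plus strand. Capitals mark CCAAT (searched as CCAAT and ATTGG, for both strands) and the palindrome CACGTG. Both motifs were chosen after the sequence had been read.

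RBM15 promoter: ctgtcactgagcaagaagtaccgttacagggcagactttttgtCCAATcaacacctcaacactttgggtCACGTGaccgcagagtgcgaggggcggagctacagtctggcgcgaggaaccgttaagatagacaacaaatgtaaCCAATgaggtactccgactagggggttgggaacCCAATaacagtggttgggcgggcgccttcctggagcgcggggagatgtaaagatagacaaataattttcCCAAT

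The window holds 4 matches to CCAAT and 1 to CACGTG, with no overlap between them. Of 35116 promoter windows of this length, 32.0% held at least 1 CCAAT and 0.874% held 4 or more, while CACGTG was found in 6.34%. Among the other members, 1 match to CCAAT was found in METTL14, ZC3H13, CBLL1 and 1 of the 2 WTAP entries, and 0 in METTL3 and RBM15B. RBM15B held 1 CACGTG and the others none. VIRMA had no entry. These are matches of letters, not binding sites.

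The values are FPKM, that is fragment numbers scaled to transcript length and library size, as deposited. The table's step of 1 read gave an estimated 32.5 to 89.7 reads per FPKM and kilobase. For RBM15 this came to an estimated 300 reads in its lowest library and 5336 in its highest, a counting error of at most 5.78%. In the libraries labelled Control Nuc replicate 2 and Control Total replicate 2 the profiles stood apart from their fractions. The first was closest to the other total libraries with 21.8% of FPKM on mitochondrial genes, and the second to the nuclear ones with 0.738%, while the other 25 were each closest to their own fraction. The 2 libraries thus look as if exchanged, which was not tested. They were kept as labelled, so the nuclear and total levels and the N/C ratios of Control replicate 2 rest on these labels. Changes of the members and of TPR, and the counts of the pathway list, are therefore also given without Control replicate 2. RUNX2, SPARC, COL1A1 and VIM, markers of mesenchyme and bone, were found in every group (lowest group mean 9.31 FPKM, for RUNX2), while the haematopoietic marker PTPRC had group means of 0.136 to 0.751 FPKM and the epithelial CDH1 of 0.353 to 1.14 FPKM. EPCAM, also epithelial, had group means of 2.49 to 4.89 FPKM.

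TPR itself was lower in every depleted library than in every control library of the same fraction. In total RNA it stood at 28.2, 25.7 and 25.3 FPKM in control, 4.36, 3.44 and 4.70 in TPR A and 3.23, 4.74 and 6.01 in TPR D. The log2 change, on the scale log2(FPKM + 0.1) used for all tests, was -2.59 ± 0.36 (SE, n = 3 per group) for TPR A and -2.44 ± 0.36 for TPR D, with limma adjusted p = 0.00120 and 0.00160. In the nuclear fraction the log2 changes of TPR were -3.76 and -3.56, and in the cytoplasmic/ER fraction -2.66 and -2.61. Without Control replicate 2 the 6 changes of TPR lay between -3.71 and -2.50.

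RBM15 mRNA was higher in every TPR-depleted library than in every control library of the same fraction. In total RNA it stood at 6.54, 8.13 and 4.85 FPKM in the control replicates. It stood at 19.1, 19.8 and 15.4 FPKM in TPR A and at 14.0, 21.9 and 15.5 FPKM in TPR D. The groups did not overlap, and the lowest depleted library was above the highest control library by more than the whole range of the control libraries. RBM15 was chosen on the TPR A and control libraries among these, so their separation is a description only. In bulk libraries, more cells with the mRNA and more of it per cell cannot be told apart.

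For TPR A in total RNA, the contrast on which RBM15 was selected, the mean rose from 6.51 ± 1.64 to 18.1 ± 2.34 FPKM (SD, n = 3), a log2 difference of 1.54 ± 0.21 (SE) or 2.92-fold. It ranked 176 of 14611 genes from the top. In that contrast 0.821% of all genes were called, from which nothing is read for RBM15, and none of the other 6 members was. The next highest member in that contrast was WTAP at 0.16. For TPR D, which uses the same control libraries, the total level was 17.1 ± 4.23 FPKM and the log2 change 1.46 ± 0.21 (95% interval 1.02 to 1.91), or 2.75-fold, with a limma adjusted p = 0.00160. Those control libraries took part in the choice of RBM15, so this p-value is not independent of that choice. RBM15 was the 1 member called in total RNA for TPR D, where 0.753% of all genes were called.

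The fractions came from the same cultures as the total samples, in libraries of their own. Their p-values are therefore not independent of the choice of RBM15 either, above all for TPR A. In the nuclear fraction RBM15 was at 6.87, 7.28 and 5.72 FPKM in control, 19.0, 19.2 and 14.4 in TPR A and 17.6, 18.5 and 15.4 in TPR D. It rose by 1.39 ± 0.21 (log2, 2.62-fold) in TPR A and by 1.37 ± 0.21 (2.59-fold) in TPR D, with limma adjusted p = 0.00237 and 0.00338. It was the 1 member called in each, against 0.903% and 0.479% of all genes.

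In the cytoplasmic/ER fraction RBM15 was at 3.30, 3.06 and 2.37 FPKM in control, 8.90, 8.81 and 6.95 in TPR A and 7.97, 7.72 and 5.31 in TPR D. The log2 change was 1.50 ± 0.21 (2.83-fold) in TPR A and 1.25 ± 0.21 (2.38-fold) in TPR D, with limma adjusted p = 0.00110 and 0.00525. Again the groups did not overlap. The share of all genes called was 0.623% for TPR A, where RBM15 was the 1 member called, and 0.575% for TPR D, where WTAP was called as well.

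**Figure D1:**
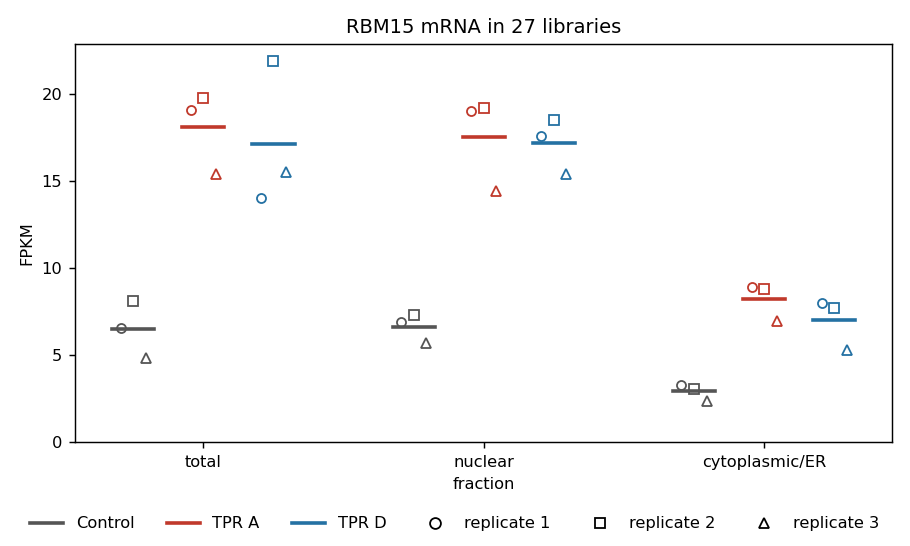
RBM15 level (FPKM, linear axis from 0) in each of the 27 libraries, by fraction and shRNA, with points for replicates and a line for the group mean. In each fraction the 6 TPR-depleted libraries lie above the 3 control libraries, and in every group the nuclear level is above the cytoplasmic/ER level.

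RBM15 did not differ between the 2 shRNAs beyond the error. The log2 difference of TPR A and TPR D was 0.08 (95% interval -0.36 to 0.53) in total, 0.02 (-0.43 to 0.46) in nuclear and 0.25 (-0.19 to 0.70) in cytoplasmic/ER libraries. Intervals of this width leave room for a difference of up to 0.70 on the log2 scale. By limma no member was called between the shRNAs, against 0.281%, 0.315% and 0.637% of all genes, with 1, 0 and 1 members under an unadjusted p of 0.05, WTAP in both cases.

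Without Control replicate 2 the RBM15 changes were 1.69 and 1.60 in total (TPR A, TPR D), 1.47 and 1.45 in nuclear and 1.54 and 1.29 in cytoplasmic/ER libraries. The 5 that were tested kept a limma adjusted p under 0.05, between 0.00276 and 0.0137. Labels of replicate 1 are written differently from those of replicates 2 and 3, which may mark another sequencing batch. Within replicate 1 the log2 differences of RBM15 were 1.58, 1.15, 1.51, 1.36, 1.48 and 1.29, in the same order, with no test. Within replicates 2 and 3 they were 1.53, 1.62, 1.33, 1.38, 1.51 and 1.23, and there the 5 tested changes missed the threshold, with limma adjusted p between 0.144 and 0.265 and unadjusted p between 1.48e-04 and 0.00149.

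Most of the remaining subunits showed no change that passed the test. METTL3, the methyltransferase, was lower on average in all 6 comparisons, by log2 values from -0.43 ± 0.25 to -0.21 ± 0.25, and none passed. In total RNA it was at 13.7, 21.5 and 11.3 FPKM in control, 11.3, 12.4 and 8.59 in TPR A and 11.4, 13.3 and 9.39 in TPR D. The groups overlapped, and the high control value belongs to replicate 2, 1 of the libraries that stood apart. In the nuclear fraction METTL3 was at 19.9, 16.1 and 16.8 FPKM in control and at 11.7, 15.1 and 13.5 in TPR A, with no overlap. The change there, -0.38 ± 0.25, had a limma adjusted p = 0.586.

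METTL14, which binds RNA beside METTL3, had log2 changes from -0.29 to 0.04. In the nuclear fraction it was at 14.7, 12.6 and 16.6 FPKM in control, 12.1, 10.6 and 13.0 in TPR A and 14.8, 11.7 and 14.7 in TPR D. These groups overlapped too. ZC3H13, a zinc finger protein that anchors the complex in the nucleus, had changes from -0.29 to 0.11, and VIRMA, the large scaffold, from -0.37 to 0.26. VIRMA in total control RNA was at 29.0, 74.3 and 27.6 FPKM, the high value again being that of replicate 2.

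CBLL1, an E3 ubiquitin ligase also known as HAKAI, had its highest mean among the cytoplasmic/ER groups in TPR A. It stood there at 14.1, 14.0 and 14.2 FPKM, against 11.0, 10.1 and 11.8 in control and 13.1, 8.92 and 11.2 in TPR D. The TPR A and control libraries did not overlap, but the log2 change of 0.40 ± 0.20 had a limma adjusted p = 0.462. Its other 5 changes lay between -0.25 and 0.02.

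WTAP, the adaptor that brings METTL3 and METTL14 to nuclear speckles, was the second member called, in the cytoplasmic/ER fraction of TPR D. It lay between 44.4 and 63.1 FPKM in the control libraries, and was at 52.0, 45.0 and 53.4 in TPR A and 30.2, 22.1 and 24.4 in TPR D. Each TPR D library was below each control and each TPR A library. WTAP fell by 1.08 ± 0.25 on the log2 scale in TPR D (0.473-fold, limma adjusted p = 0.0463), whereas in TPR A the change was -0.09 ± 0.25 (limma adjusted p = 0.944). This call was near the threshold and was kept under 8 of 19 alternatives. Of the 9 fits without 1 culture, it passed only in the one without TPR D replicate 1. Its limma adjusted p was 0.119 without Control replicate 2 and 0.220 without Control replicate 1, with log2 changes of -0.97 and -1.04, and its direction was the same under all 19.

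In the nuclear fraction of TPR D WTAP was at 21.0, 19.2 and 16.4 FPKM, below the control libraries (27.2, 40.7 and 25.4), with a log2 change of -0.68 ± 0.25 and a limma adjusted p = 0.337. The 40.7 belongs to replicate 2, 1 of the libraries that stood apart. Without Control replicate 2 the nuclear change was -0.47. In total RNA the WTAP change in TPR D was -0.38 ± 0.25, and -0.55 without Control replicate 2. The difference of TPR A and TPR D for WTAP, added after its levels had been seen, was 0.99 ± 0.25 in the cytoplasmic/ER fraction, 1.98-fold higher in TPR A, with a limma adjusted p = 0.0786. In the fit with a replicate block it was 0.0201, and without Control replicate 2 in the fit it was 0.0414, while it missed the threshold under the other 16 alternatives.

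**Figure D2:**
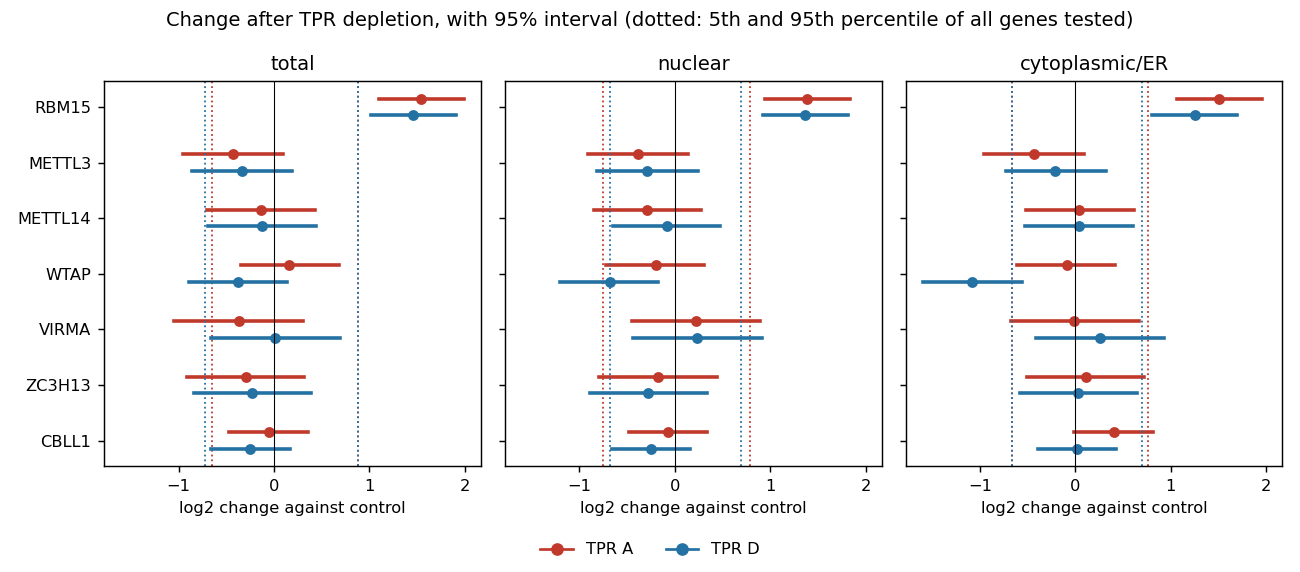
Log2 change against control (x axis) of the 7 members found, with 95% intervals, by fraction and shRNA, and dotted lines at the 5th and 95th percentiles of all genes tested. RBM15 lies to the right of the upper percentile in the 6 comparisons, of which total TPR A was the basis of its choice, and WTAP in cytoplasmic/ER TPR D lies to the left of the lower percentile.

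**Figure D3:**
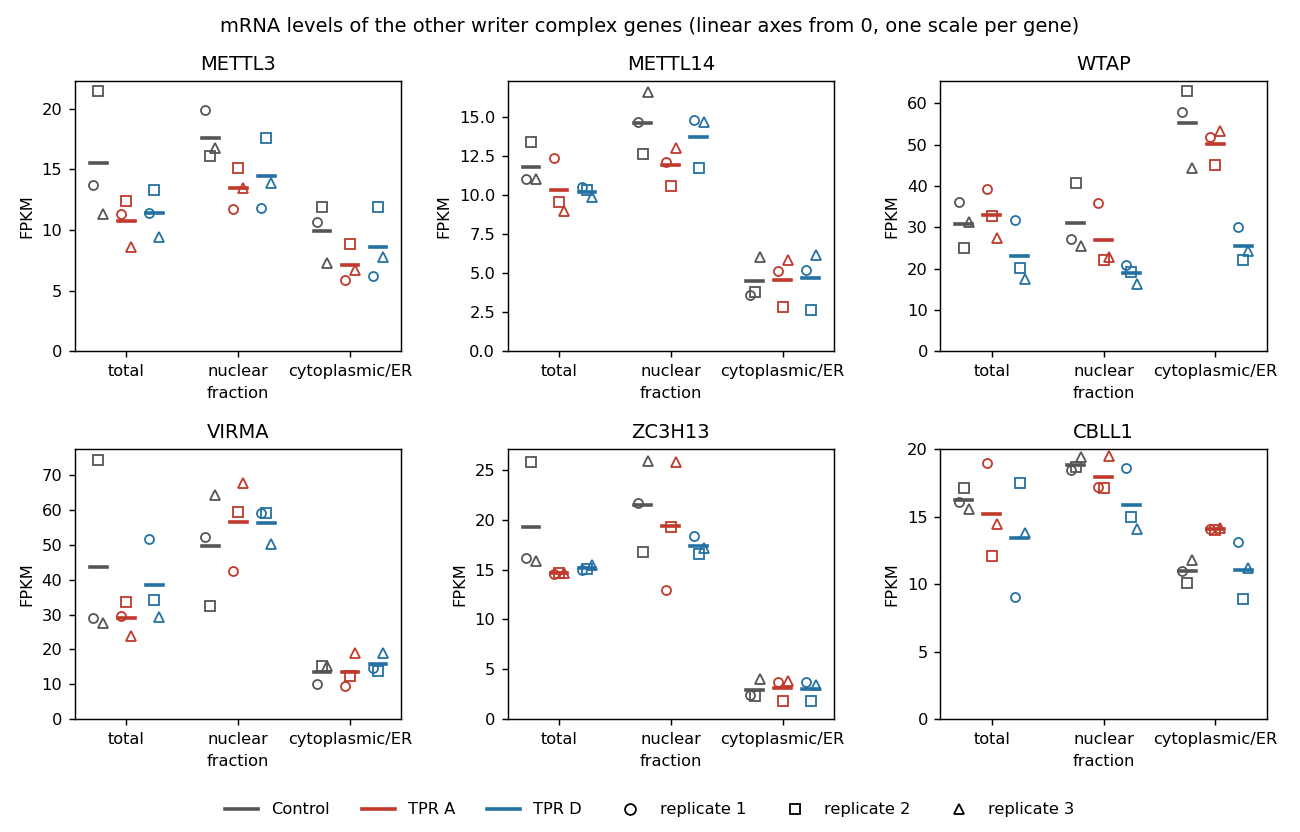
Levels (FPKM, linear axes from 0) of METTL3, METTL14, WTAP, VIRMA, ZC3H13 and CBLL1 in the 27 libraries, with points for replicates and lines for group means. WTAP in cytoplasmic/ER TPR D lies below its control libraries, and the squares of control replicate 2 stand high in total RNA for METTL3, VIRMA and ZC3H13.

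Over the 6 members other than RBM15, the median log2 change was -0.22 in total TPR A, -0.24 in total TPR D, -0.19 in nuclear TPR A, -0.26 in nuclear TPR D, 0.02 in cytoplasmic/ER TPR A and 0.03 in cytoplasmic/ER TPR D. Over all genes tested the median lay between -0.02 and -0.01. In the 5 comparisons other than total TPR A, RBM15 was above the 95th percentile of all genes, which lay between 0.70 and 0.88. Those 5 share cultures with the contrast on which RBM15 was chosen. Without Control replicate 2 the medians of the 6 partners were -0.06, -0.08, -0.20, -0.29, -0.01 and -0.06 in the same order, with 0 of the 6 called in each, and the changes ran from -0.43 to -0.06 for METTL3, -0.38 to -0.05 for METTL14, -0.05 to 0.44 for VIRMA, -0.43 to -0.03 for ZC3H13 and -0.25 to 0.34 for CBLL1.

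The order of the members' levels, which FPKM makes comparable between genes by scaling to length, changed at RBM15. In control cells RBM15 had the lowest mean of the 7 in each fraction. In total RNA its highest library (8.13 FPKM) was below the lowest of METTL14, the next member (11.8 ± 1.42 FPKM). In the cytoplasmic/ER fraction RBM15 (2.91 ± 0.484) did not differ from ZC3H13 (2.92 ± 0.987), and their ranges overlapped.

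In total TPR A the rank of RBM15 restates the difference on which it was chosen. After depletion RBM15 ranked 3 of 7 in total RNA under both shRNAs, below WTAP and VIRMA. Its range there overlapped that of CBLL1 in TPR A (15.2 ± 3.47 FPKM), and those of its neighbours WTAP and ZC3H13 in TPR D (23.0 ± 7.61 and 15.2 ± 0.245). In the nuclear fraction it ranked 5 of 7 in TPR A and 4 in TPR D, and in the cytoplasmic/ER fraction 4 in TPR A and 5 in TPR D. At the top, VIRMA led in control nuclei at 49.8 ± 16.0 FPKM, with a range that overlapped that of WTAP (without replicate 2 they were at 58.4 and 26.3 FPKM and did not overlap), and WTAP led in the control cytoplasmic/ER fraction at 55.1 ± 9.65 FPKM, apart from VIRMA at 13.6 ± 2.98. The order of VIRMA and WTAP in total control RNA turned without replicate 2, from 43.6 and 30.9 to 28.3 and 33.7 FPKM.

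The study's readout for export was the N/C ratio, the level in the nuclear fraction over that in the cytoplasmic/ER fraction of the same culture. It compares shares of each library, so it gives no number of molecules. In control cells all 7 members passed the test of nuclear against cytoplasmic/ER libraries, where 39.4% of all genes did. The mRNAs of 6 were higher in the nuclear libraries and that of WTAP was lower. The median over the 7 was 1.20 on the log2 scale, against -0.01 over all genes.

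ZC3H13 was the most nuclear, at a log2 ratio of 2.90 ± 0.30 (SE), or 7.44-fold, above 99.4% of all genes. VIRMA followed at 1.87 ± 0.32, METTL14 at 1.75 ± 0.27, RBM15 at 1.20 ± 0.21, METTL3 at 0.87 ± 0.25 and CBLL1 at 0.82 ± 0.20. WTAP stood at -0.80 ± 0.25. Limma adjusted p for these lay between 1.10e-06 and 0.0139. The calls for METTL3 and WTAP were lost without Control replicate 1 (limma adjusted p = 0.0623 and 0.125) and without Control replicate 3 (0.0822 and 0.0516), in the same direction. Without Control replicate 2, all 7 passed.

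For RBM15 the log2 N/C ratio was 1.06, 1.27 and 1.27 in the control cultures, 1.09, 1.13 and 1.05 in TPR A and 1.14, 1.26 and 1.57 in TPR D. The 3 groups overlapped. The mean was 1.20 ± 0.12 in control, 1.09 ± 0.04 in TPR A and 1.32 ± 0.22 in TPR D (SD, n = 3). The level of RBM15 was thus higher after depletion in both fractions at nearly the same ratio.

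The N/C change of RBM15 was -0.11 (95% interval -0.74 to 0.52) in TPR A and 0.12 (-0.51 to 0.75) in TPR D, with opposite signs. For both shRNAs together it was 0.01 (-0.54 to 0.55), with p = 0.988 in a 2-sided exact permutation test. All 84 ways to draw 3 control cultures from the 9 were used, so the smallest p it can give is 0.0119. These limma intervals treat the nuclear and cytoplasmic/ER libraries of a culture as independent. With 1 ratio per culture, a fit added after the data had been seen, the intervals were -0.52 to 0.30, -0.29 to 0.53 and -0.35 to 0.36. The 2 shRNAs differed by -0.23 (-0.86 to 0.40). Without Control replicate 2 the N/C changes were -0.08 and 0.16.

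No member was called for the N/C change in TPR A, TPR D, both shRNAs together or TPR A against TPR D, and neither was any other gene (0% of all genes in each). At an unadjusted p under 0.05, limma gave 215, 120, 251 and 49 genes, none of them a member. These are 1.47%, 0.821%, 1.72% and 0.335% of all genes, fewer than a test at 0.05 gives with no change anywhere. The fit was thus over-cautious for N/C changes. It also called none of the histone mRNAs, which the study reported as the most affected. The lack of calls therefore does not show that the ratios were kept. The lowest N/C change of the members in TPR D was that of ZC3H13, -0.31. CBLL1 had the lowest in TPR A, -0.47 ± 0.28, and stood at -0.27 ± 0.28 in TPR D. In TPR A its N/C ratios (0.30 to 0.46) lay below those of the control cultures (0.75 to 0.93), and in TPR D (0.37 to 0.75) they reached the lowest control value. With 1 ratio per culture the CBLL1 change in TPR A was -0.47 ± 0.18, with a limma unadjusted p = 0.0239 and adjusted p = 0.546. WTAP was less cytoplasmic in TPR D, at a mean log2 ratio of -0.41 ± 0.19, than in control, at -0.80 ± 0.24 (SD, n = 3), a change of 0.40 ± 0.35 that did not pass the test.

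**Figure D4:**
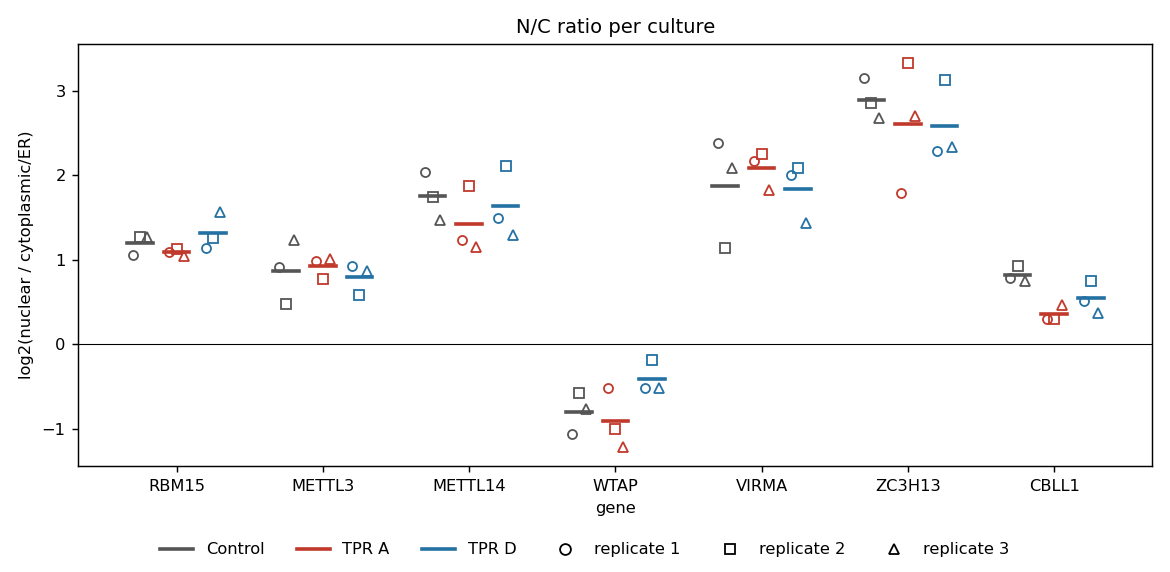
Log2 ratio of nuclear to cytoplasmic/ER level (y axis) in each of the 9 cultures for the 7 members, with points for replicates and lines for the means of 3 cultures. Of the genes, 6 lie above 0 and WTAP below, and for RBM15 the cultures of the 3 shRNAs overlap between 1.05 and 1.57.

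A list of 35 other genes of the m6A pathway was examined in the same fit, all of them above the minimum. It holds the demethylases, the reader proteins, other RNA methyltransferases, SPEN-family and RBM15 partners, and enzymes that make and recycle the methyl donor S-adenosylmethionine. Of the 35, 1 was called in total TPR D, where it was lower, and 0 in each of the other 5 depletion comparisons and in the N/C changes. In the fit without Control replicate 2, 0 of the 35 were called in each. Of all genes, that fit called 0.281% to 0.568% in the depletion comparisons and 0% in the N/C changes. By unadjusted p under 0.05, limma gave 3 of 35 in total TPR A, 7 in total TPR D, 7 in nuclear TPR A, 1 in nuclear TPR D, 4 in cytoplasmic/ER TPR A and 3 in cytoplasmic/ER TPR D. Over all genes these shares were 12.6%, 14.6%, 12.2%, 9.13%, 11.6% and 9.42%. The list's medians lay between -0.21 and 0.01.

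The gene called was FTO, a demethylase of m6A and of the cap-adjacent m6Am. It was at 29.6, 41.5 and 32.5 FPKM in total control RNA and at 14.1, 21.3 and 20.5 FPKM in TPR D, with no overlap, while TPR A (26.4, 23.8 and 28.4) lay between them. The log2 change in TPR D was -0.82 ± 0.18 (limma adjusted p = 0.0361) and in TPR A -0.33 ± 0.18 (adjusted p = 0.474). The call was kept under 9 of 19 alternatives, and of the fits without 1 culture it passed only without Control replicate 3. For example, without Control replicate 2 the FTO change was -0.71 with a limma adjusted p = 0.149. ALKBH5, the other demethylase, had changes from -0.04 to 0.28, none of which passed.

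The YTH readers bind m6A directly. None was called after depletion, and the 5 genes had log2 changes between -0.42 (YTHDC2, nuclear TPR D) and 0.39 (YTHDF1 and YTHDF3, total TPR D). In control cells YTHDC1, a nuclear reader, had an mRNA level of 181 ± 17.8 FPKM in the nuclear and 72.9 ± 9.92 in the cytoplasmic/ER fraction. YTHDC1, YTHDC2, YTHDF2 and YTHDF3 were higher in nuclear libraries, by 1.35, 1.82, 0.76 and 1.05, and YTHDF1 was at -0.20, which did not pass. Over all 35 genes, 12 were called higher and 5 lower in control nuclei, against the 39.4% of all genes called, with a median of 0.32. These counts fell to 9 and 3 without Control replicate 2, against 29.8% of all genes, with a median of 0.43.

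Among those called in that contrast, SPEN, the founding member of the family of RBM15, and the splicing factor SF3B1 were also higher in nuclei. Those called lower in nuclei included ALKBH5, PCIF1, which methylates cap-adjacent adenosine, and HDAC3, a deacetylase of SPEN co-repressor complexes. Their ranges over the alternatives were 1.84 to 2.48 for SPEN, 2.14 to 2.30 for SF3B1, -0.70 to -0.56 for ALKBH5, -1.16 to -0.99 for PCIF1 and -1.41 to -1.33 for HDAC3.

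**Figure D5:**
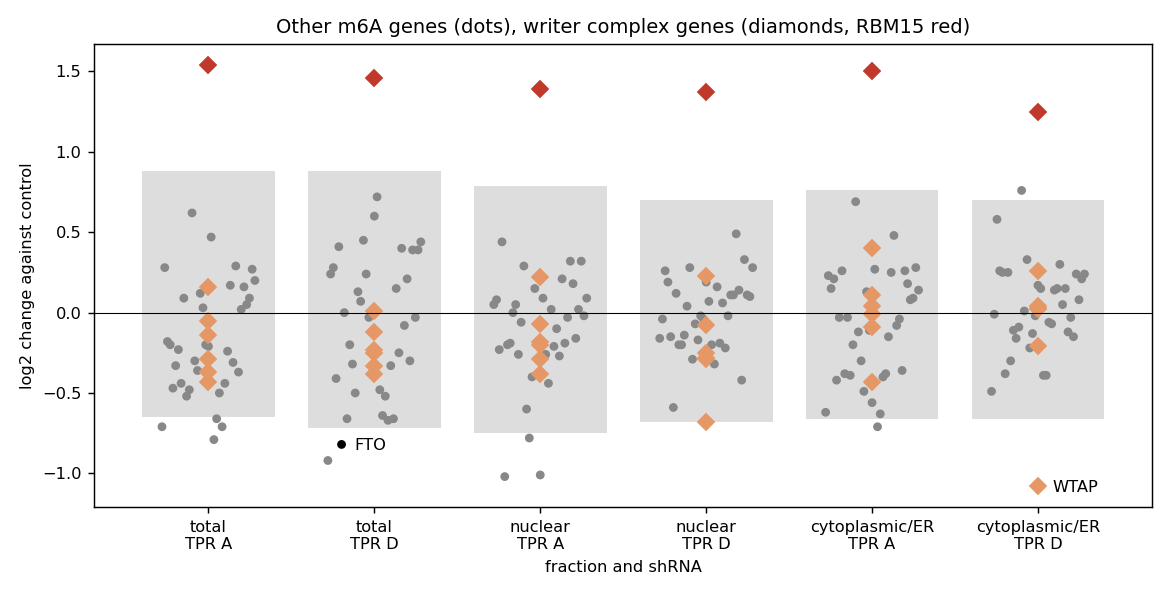
Log2 change against control (y axis) of the 35 other m6A genes (dots, black where called) and the 7 members (diamonds, RBM15 in red), by fraction and shRNA, over the range from the 5th to the 95th percentile of all genes (grey). RBM15 is above the grey range in the 6 comparisons, of which total TPR A was the basis of its choice. FTO in total TPR D and WTAP in cytoplasmic/ER TPR D, both called, lie below it, as do some genes that were not called.

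The genes whose pattern was most like that of RBM15 were found by Pearson correlation of log2 values, centred within each fraction, over the 27 libraries, among the genes tested. The highest were CHRNA3 (r = 0.944), a nicotinic receptor subunit, RUNX1 (0.918), a transcription factor of blood and bone, TLX1 (0.914), a homeobox factor, BCL11B (0.911), a zinc finger factor of T cells, and ENSG00000248431 (0.904), which the annotation does not name. The 27 points share 9 cultures, so these values are descriptions. Genes picked in this way share the difference of RBM15 between depleted and control libraries, total TPR A included. Their direction after depletion is therefore no separate result. All 5 were higher after depletion in all 6 comparisons, with RUNX1 at log2 changes of 0.69 to 1.15 and ENSG00000248431 at 1.28 to 2.40. Several were low, as TLX1 reached at most 4.93 FPKM and BCL11B at most 4.08. The partners of RBM15 in the complex had r between -0.405 (METTL3) and 0.0105 (CBLL1).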

How the data were processed

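Poly(A)+ RNA of 3 fractions from 9 cultures was sequenced (27 libraries). Per the study's methods and the submitters' processing notes (hg19, Salmon, DESeq2), the authors quantified reads with Salmon on protein-coding and lncRNA transcripts, summed them to genes with tximport and deposited FPKM. No replicate was pooled and 0 columns were left unused. The authors' own fold changes were not used. Versions are not given in the sources used here.

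IDs were matched to GENCODE release 44 on GRCh37 (32776 matched, 1688 not). FPKM are not counts, so no count model was used. Reads per FPKM were estimated from steps of 1 read in low values (at least 85.9% within 0.1 of a whole read, with 260 nt taken off each transcript). Each library was scaled by a median-of-ratios factor (0.954 to 1.06). Genes with a mean above 1 FPKM outside the mitochondrial genome (13 genes left out) were fitted as log2(FPKM + 0.1) with limma 3.58.1 in R 4.3.3 (trend, 9 groups, Benjamini-Hochberg, threshold 0.05). A pseudocount understates changes of low genes. The permutation test and figures were made in Python 3.11.15 (pandas 2.3.3, matplotlib 3.10.9, numpy 2.4.6). Both tests were tried on simulated data.

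Members, lists and tests were chosen with earlier results of these data known. Named genes are the members, TPR, overlapping genes, pathway genes past the threshold, the erasers and YTH readers, and the 5 genes most like RBM15. Same-numbered control and TPR A total libraries deviated together (correlations 0.137 to 0.324, each over 0.1). So did TPR A and TPR D in nuclear (0.131 to 0.266) and cytoplasmic/ER libraries (0.398 to 0.597). The other pairs of groups did not exceed 0.1 throughout, as in control and TPR A nuclear libraries (-0.260 to 0.250). A replicate block was fitted as an alternative. Other alternatives were deposited values, pseudocounts of 1 and 0.01, no minimum, a minimum of 5 FPKM, no trend, the culture as a block, 1 shRNA with control, replicate subsets and each culture left out. The TPR A against TPR D comparisons outside total RNA, the fit of 1 N/C ratio per culture, and the level order, ranges and list counts without Control replicate 2, were added after seeing the data.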

Additional observations from a re-analysis of the deposited data

How the results depend on the processing

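The RBM15 changes in the 5 tested depletion comparisons kept their direction under all alternatives and passed the threshold under all but replicates 2 and 3 alone, where they were 1.62 (total TPR D), 1.33 and 1.38 (nuclear TPR A and TPR D) and 1.51 and 1.23 (cytoplasmic/ER). In that subset 0 members were called in each of these 5 comparisons, against 1 or 2. It has fewer libraries and lacks replicate 1, and the cause of the lost calls was not tested. In cytoplasmic/ER TPR D, 1 member instead of 2 was called with no minimum, with only control and TPR D in the fit, and in 8 of the 9 fits that left out 1 culture (1 to 2 called). With the replicate block the RBM15 change in total TPR D was 1.46 ± 0.14, and the block changed no call on a member against control. Of the other m6A genes, 2 were called with the replicate block (FTO and IGF2BP3, the latter at -0.78 in nuclear TPR A, limma adjusted p = 0.0451) and 0 with only control and 1 shRNA in the fit or within replicates 2 and 3, and 0 to 1 with 1 culture left out.

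The N/C change of RBM15 changed sign where it was near 0. For TPR A it was 0.022 with a pseudocount of 1 and 0.031 within replicate 1. For both shRNAs it was -0.010 with a pseudocount of 0.01 (also in the permutation test), -0.018 within replicates 2 and 3, and -0.063 to 0.052 with 1 culture left out (-0.066 to 0.041 in the permutation test). The cause was not tested. With 1 ratio per culture no value changed and no N/C call was gained. Of the values of the members beside these tests, 1737 moved by less than the spread between replicates and 47 by more, and no called value changed its sign.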
